A study of Mus musculus with 6 samples.

Results

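The 8 genes Zfp451, Tnrc6c, Zfp62, Pdzd8, Gprin1, Gprin3, Lrrn3 and Rbm15 were examined for where their RNA was enriched for N6-methyladenosine (m6A), a methylated form of the RNA base adenosine. The genes were selected on the width of enriched regions in these same data, and a fixed window on the mm9 mouse genome was set for each. Regions are named here by the gene of their window. Whether each region lies within that gene was not checked, since no annotation of mm9 was used. The windows held 129 of the 42886 peaks in the authors' list. Joining peaks that touch gave 23446 enriched regions over the list, of which 28 had at least 1 peak inside these windows. At 7 genes the widest region measured 2100 bases or more and ranked among the first 9 of the 23402 regions on assembled chromosomes, called nuclear regions here. With only touching peaks joined, the data went against the selection at Gprin3, whose widest region measured 1075 bases and ranked 262. This depends on the joining. With gaps up to 300 bases joined, the widest region at Gprin3 measured 2700 bases and ranked 40 of 18485.

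Adult wild-type mice on a C57BL/6 background, labelled as littermates, gave the tissue, which the labels name as midbrain and striatum together; RiboMinus treatment took ribosomal RNA out of the extracts. An antibody to m6A then pulled down marked fragments in 2 rounds (MeRIP), giving 3 MeRIP libraries beside 3 input libraries of RNA without pull-down. All 6 libraries share 1 deposited list of peak positions, with no height, strand or value per library. No spread between replicates, depth or test can therefore be given, and the labelled tissue could not be checked against marker genes. In such bulk tissue, fewer cells of a type and less RNA per cell cannot be told apart. Likewise, the abundance of an RNA and the number of its marked adenosines cannot be told apart from the width of a region.

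m6A is placed by a nuclear methyltransferase complex built around Mettl3 and Mettl14, is read by proteins of the YTH family and can be removed by demethylases such as Fto, the gene named in the title of the series. In messenger RNA the mark is known to gather near stop codons, in 3' untranslated regions and in long exons. Antibody-based mapping works on RNA fragments, so neighbouring marked adenosines in a transcript merge into a broader stretch of enrichment. The 8 genes fall by known role into regulators of RNA (Rbm15, Tnrc6c), zinc finger proteins (Zfp451, Zfp62), proteins of neurite growth and of the neuronal surface (Gprin1, Gprin3, Lrrn3) and a protein of membrane contact sites (Pdzd8).

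Rbm15, an RNA-binding protein that helps direct the m6A methyltransferase complex to its sites, carried a region 2100 bases wide on chromosome 3, from 107133101 to 107135200, held in the list as 11 peaks. This was the narrowest widest region among the 7 genes above 2000 bases. A region of 275 bases from 107128951 to 107129225 lay 3875 bases away on the side of lower coordinates. Beyond it, a region of 550 bases from 107127801 to 107128350 crossed the edge of the window and was counted whole. On the side of higher coordinates the next region was 106850 bases away. Rbm15 was thus the gene with the longest gap between the widest region and its companions, since in the other 6 genes with companions the nearest was at most 625 bases away. In the gene table of build GRCm38, Slc16a4, which encodes a monocarboxylate transporter, overlaps Rbm15, and the list has no strand. Which of the overlapping genes gave each region at this window cannot be told apart here.

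Tnrc6c, a GW182 protein that links Argonaute proteins to the silencing of microRNA targets, had a single unbroken region in its window. It ran on chromosome 11 from 117582301 to 117584825, a width of 2525 bases in 13 peaks. No other region lay within 20000 bases of it. The nearest was 37125 bases away toward higher coordinates, and the next on the other side was 358850 bases away. Tnrc6c was the only one of the 8 genes with all covered bases of its window in 1 region.

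Zfp451, a zinc finger protein that acts as a SUMO ligase, matched Tnrc6c in width. Its region ran on chromosome 1 from 33857801 to 33860325, again 2525 bases in 13 peaks. Unlike Tnrc6c it had a companion, a region of 150 bases from 33857626 to 33857775, which was separated by a gap of 25 bases. That gap equals the step of the grid on which the ends of regions lie, so it is the shortest gap the list can hold. On the other side the next region was 48900 bases away.

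Zfp62, a protein made largely of C2H2 zinc fingers, carried the third widest nuclear region, 2375 bases in 12 peaks on chromosome 11 from 49028551 to 49030925. Its companions numbered 3, all toward higher coordinates. They were 200 bases wide from 49031126 to 49031325, 150 bases wide from 49031351 to 49031500, and 250 bases wide from 49031826 to 49032075. The first began 200 bases after the widest region ended. Toward lower coordinates nothing was listed for 118850 bases, the longest empty side among the 6 genes that had a wide region and companions on 1 side. In the GRCm38 table the pseudogene Gm18583 overlaps Zfp62. No source used here says how reads that match several similar zinc finger sequences were counted.

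**Figure D1:**
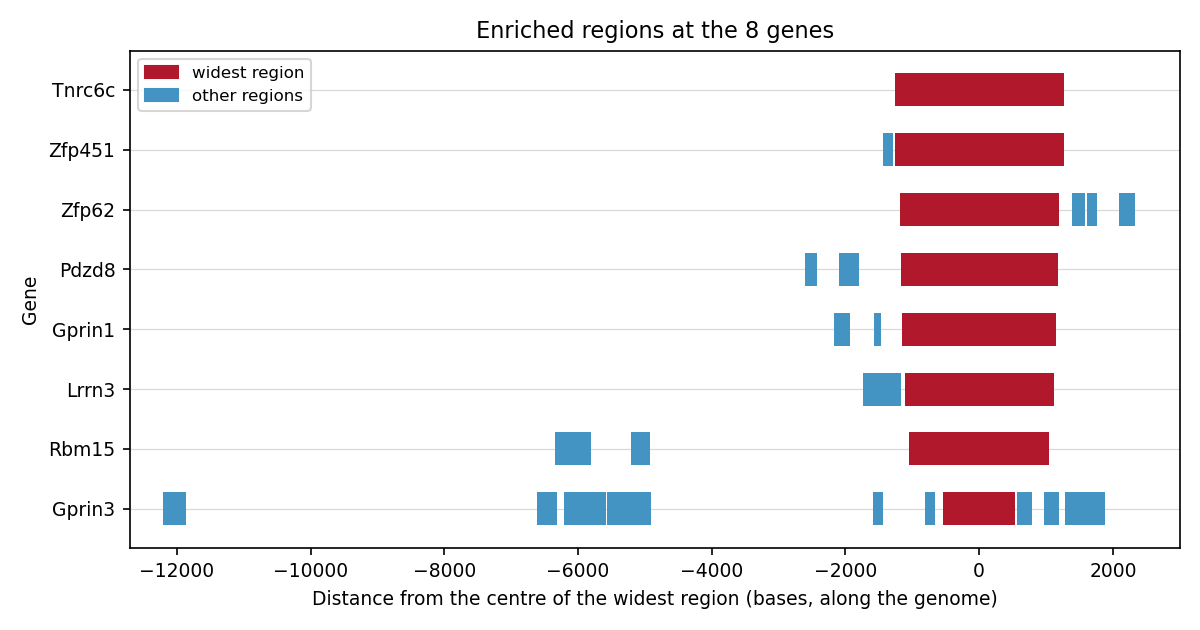
Enriched regions at each of the 8 genes, drawn to scale along the genome with the centre of the gene's widest region at 0; red marks the widest region and blue the others, and lower genome coordinates lie to the left. The companions sit on the left at Zfp451, Pdzd8, Gprin1, Lrrn3 and Rbm15, on the right at Zfp62, on both sides at Gprin3, and Tnrc6c has none.

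Gprin1 and Gprin3 encode relatives of the same family, proteins that bind activated G proteins of the Gi/o class and promote neurite outgrowth. Gprin1 carried a region of 2300 bases in 12 peaks on chromosome 13 from 54839651 to 54841950. Its companions were a region of 100 bases from 54839226 to 54839325, the minimum width of a peak in the list, and a region of 250 bases from 54838626 to 54838875. The nearer of them was 325 bases from the widest region. At Gprin1, 86.8% of 2650 covered bases lay in the widest region. This share follows in part from the choice of the gene by that width.

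The arrangement at Gprin3 differed from that at Gprin1. Its window held 10 regions and 27 peaks, more than any other of the 8 windows, and 4350 covered bases, also the most. Only 24.7% of these bases lay in the widest region, which ran on chromosome 6 from 59302976 to 59304050. Splitting the window wherever regions were over 1000 bases apart, a division chosen after the positions were seen, gave 3 groups. The largest group ran from 59301926 to 59305400, a span of 3475 bases in which 6 regions covered 69.8%. The second ran from 59296901 to 59298600, a span of 1700 bases in which 3 regions covered 92.6%. A lone region of 350 bases from 59291301 to 59291650 made up the last group. The groups were 3325 and 5250 bases apart.

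Within the largest Gprin3 group, the region of 1075 bases was followed after 25 bases by a region of 225 bases from 59304076 to 59304300. After this came regions of 225 bases from 59304476 to 59304700 and of 600 bases from 59304801 to 59305400. Before it lay 2 regions of 150 bases each, from 59301926 to 59302075 and from 59302701 to 59302850. In the second group, regions of 300, 625 and 650 bases followed one another with gaps of 100 and 25 bases. The Gprin3 enrichment thus covered more bases than that of Gprin1, but in 3 groups up to 5250 bases apart. Gaps inside the second group were shorter than the gaps of 325 and 350 bases at Gprin1. Inside the largest group they ran from 25 to 625 bases. In the GRCm38 table no other gene overlaps Gprin1 or Gprin3.

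Lrrn3, a leucine-rich repeat membrane protein of neurons, carried a region of 2225 bases in 12 peaks on chromosome 12 from 42178926 to 42181150. Directly beside it, after a gap of 50 bases, was a region of 575 bases from 42178301 to 42178875. This was the widest companion found at any of the 7 genes above 2000 bases. The next region on the other side was 31175 bases away. In the GRCm38 table Lrrn3 overlaps Immp2l, which encodes a mitochondrial inner membrane peptidase subunit, so enrichment here cannot be told apart between them without strand.

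Pdzd8, a protein of the endoplasmic reticulum that tethers it to other organelles and transfers lipids, carried a region of 2350 bases in 12 peaks on chromosome 19 from 59373851 to 59376200. Its companions were 300 bases wide from 59372926 to 59373225 and 175 bases wide from 59372426 to 59372600. The nearer of them was 625 bases away, while on the other side the next region was 43175 bases away. In the GRCm38 table the pseudogene Rps12-ps3 overlaps Pdzd8.

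The genes were chosen by these widths, which are therefore given as a description with no test. Regions over 2000 bases made up 0.0641% of nuclear regions and those over 1000 bases 1.45%. Zfp451 and Tnrc6c shared the first place, and Zfp62, Pdzd8 and Gprin1 followed in ranks 3, 4 and 5. Nuclear regions that belong to none of the 8 windows took ranks 6 and 7. They lay on chromosome 15 from 72636976 to 72639250, with 2275 bases, and on chromosome 5 from 107935901 to 107938150, with 2250 bases. Lrrn3 was in rank 8 and Rbm15 in rank 9. Just outside was a region on chromosome 9, 2075 bases wide, from 111174626 to 111176700, 25 bases narrower than that of Rbm15. Against the nuclear median of 225 bases, the widest regions were 9.33 times (Rbm15) to 11.2 times (Zfp451 and Tnrc6c) as wide at 7 genes, and 4.78 times as wide at Gprin3.

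**Figure D2:**
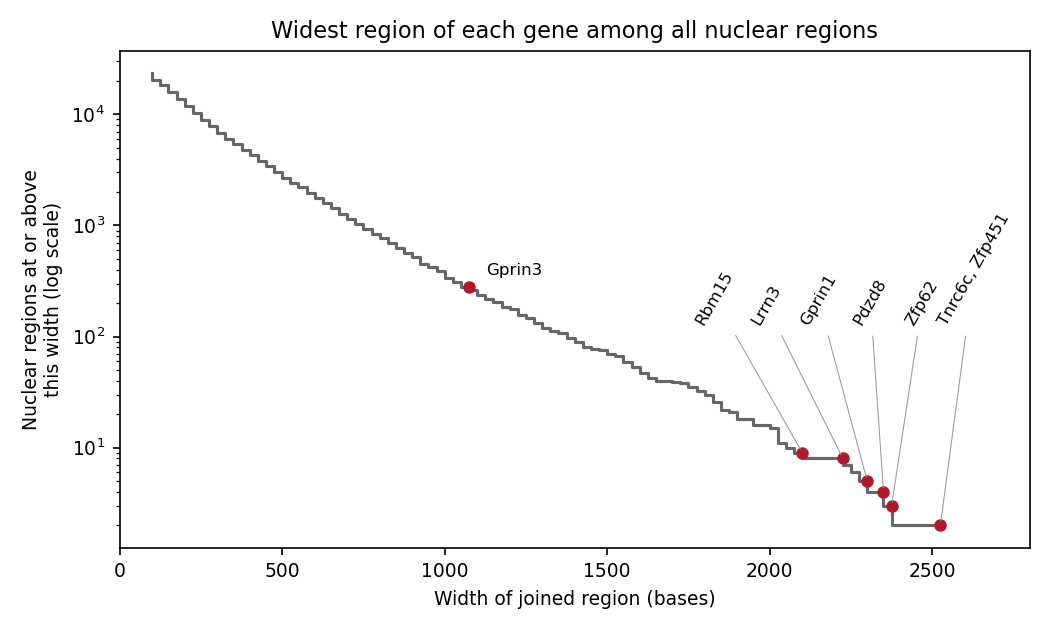
Number of nuclear regions (vertical axis, log scale) at or above each width in bases (horizontal axis), with the widest region of each of the 8 genes as a red point. Of the points, 7 lie at 2100 bases or more, at the far end of the curve, and Gprin3 lies at 1075 bases.

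The peaks inside each wide region carried no further structure. Each region was cut into pieces of nearly equal length, from 179 to 186 bases at Lrrn3 and from 197 to 198 bases at Zfp62, with limits of 175 and 198 bases over the 8 widest regions. No peak in the list was longer than 200 bases. The number of peaks in a region therefore follows its width.

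The widest region held most of the covered bases at 7 genes. The genes were chosen by the width of this region, so a large share follows in part from that choice. The same share around other wide regions was not computed, and no test was made. Their windows held 11 companions with a median width of 250 bases, from 100 to 575 bases, against 225 bases over all nuclear regions, and 5 of the 11 were no wider than that median. From 71.8% (Rbm15) to 100% (Tnrc6c) of a gene's covered bases lay in its widest region. Summed over these 7 genes the share was 84.6% of 19375 bases, and with Gprin3 it was 73.7% of 23725 bases. Between 18.9% of the window (Gprin1) and 33.4% (Zfp451) was covered, but the windows differ in length, from 8000 bases at Zfp451 to 15000 bases at Gprin3.

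The distance from the widest region to the nearest other region differed among the genes, from 25 bases at Zfp451 and Gprin3 to 37125 bases at Tnrc6c. Another region was present within 100 bases at 3 of 8 genes (Zfp451, Lrrn3 and Gprin3), within 1000 bases at 6, and within 10000 bases at 7. Over all nuclear regions these shares were 19.5%, 51.3% and 73.7%. Among the 331 other nuclear regions wider than 1000 bases they were 25.1%, 57.1% and 78.5%. Without Gprin3, the shares at 7 genes within 100, 300, 1000 and 10000 bases were 28.6%, 42.9%, 71.4% and 85.7%. Within 300 bases the share was 44.4% for the other wide regions. The median distance to the nearest region was 262.5 bases for the 8 genes, 450 bases for the other wide regions and 900 bases for all nuclear regions. With 8 regions from 1 list, the difference between these medians was not tested.

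At most of the genes the companions were gathered on 1 side. At 6 of 8 genes (Zfp451, Zfp62, Pdzd8, Gprin1, Lrrn3 and Rbm15) a region lay within 5000 bases on 1 side and none within 20000 bases on the other. This held for 34.7% of all nuclear regions and for 39.0% of the other nuclear regions wider than 1000 bases. At these 6 genes the nearest region was 25 to 3875 bases away on the near side, with a median of 262.5 bases. On the far side it was 25800 (Gprin1) to 118850 bases (Zfp62) away, with a median of 46037.5 bases. Both distances were chosen after the positions were seen, and the difference from other regions was not tested.

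For 5 of these 6 genes a strand was listed, and the near side was the 3' side at each of them. RefSeq's promoter table for GRCm38 lists a strand for 7 of the 8 genes, all but Lrrn3. Strand was taken from that table and no coordinate was carried over; whether each gene has the same strand in mm9 was not checked. Zfp451, Pdzd8, Gprin1, Gprin3 and Rbm15 are listed on the minus strand, and Tnrc6c and Zfp62 on the plus strand. Within 10000 bases of the widest region, 5 of the 7 genes had regions only on the 3' side, 0 had them only on the 5' side, Gprin3 had both and Tnrc6c had none. The same share over other regions was not computed, since those were not placed on genes with a strand, so nothing can be said on whether this side is particular to these genes. The counts for the 7 genes were the same within 5000 and within 20000 bases. Within 50000 bases 3 genes had regions only on the 3' side, 4 had both and 0 only the 5' side. Neighbouring genes can contribute at that distance, and overlapping genes at shorter ones too, as listed above for Rbm15, Zfp62 and Pdzd8.

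The covered bases come from the same regions as these counts, so a side without regions has 0 covered bases by definition. Within 10000 bases, the 3' side held 150 covered bases at Zfp451, 600 at Zfp62, 475 at Pdzd8, 350 at Gprin1 and 825 at Rbm15, and the 5' side held 0 at each of them. Gprin3 had 1875 covered bases on the 3' side and 1050 on the 5' side. The order turned at Gprin3 with distance, since within 1000 bases it had 250 on the 3' side and 700 on the 5' side. Whether the regions on the 3' side belong to the same transcript as the widest region was not tested, since no annotation of mm9 was used.

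**Figure D3:**
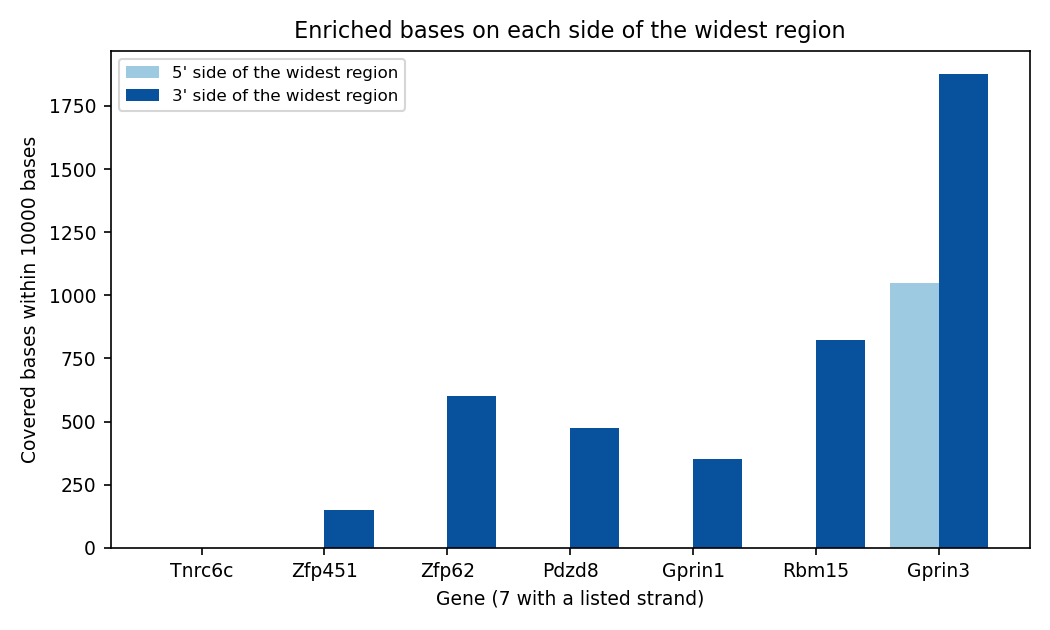
Bases covered by other enriched regions within 10000 bases of the widest region, on its 5' side (light bars) and 3' side (dark bars), for the 7 genes with a listed strand. The light bar is above 0 only at Gprin3, with 1050 bases, and Tnrc6c has 0 on both sides.

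How wide a region is depends on how small gaps are treated. Joining peaks up to 25 bases apart changed the widest region at 2 genes. Zfp451 grew to 2700 bases and Gprin3 to 1325 bases. With gaps up to 100 bases joined, Lrrn3 reached 2850 bases, and the widest region at Gprin3 became its second group, 1700 bases from 59296901 to 59298600. With gaps up to 300 bases joined, Zfp62 reached 2950 bases and Gprin3 reached 2700 bases, of which 84.3% were covered. The widths at Tnrc6c, Pdzd8, Gprin1 and Rbm15 did not change at any of these settings.

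The place of the 8 genes in the order of width shifted with the same choice. Gprin3 moved from rank 262 to ranks 150, 96 and 40 as gaps of up to 25, 100 and 300 bases were joined. At 300 bases it shared its rank with Zfp451. Rbm15, which did not change in width, moved from rank 9 to ranks 12, 33 and 119. Nuclear regions over 2000 bases numbered 15 with touching peaks joined, and 20, 40 and 149 at the wider settings. The genes with an unbroken region of over 2000 bases were thus 7 of 8 with touching peaks joined, while at 300 bases all 8 passed that width along with many other regions.

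**Figure D4:**
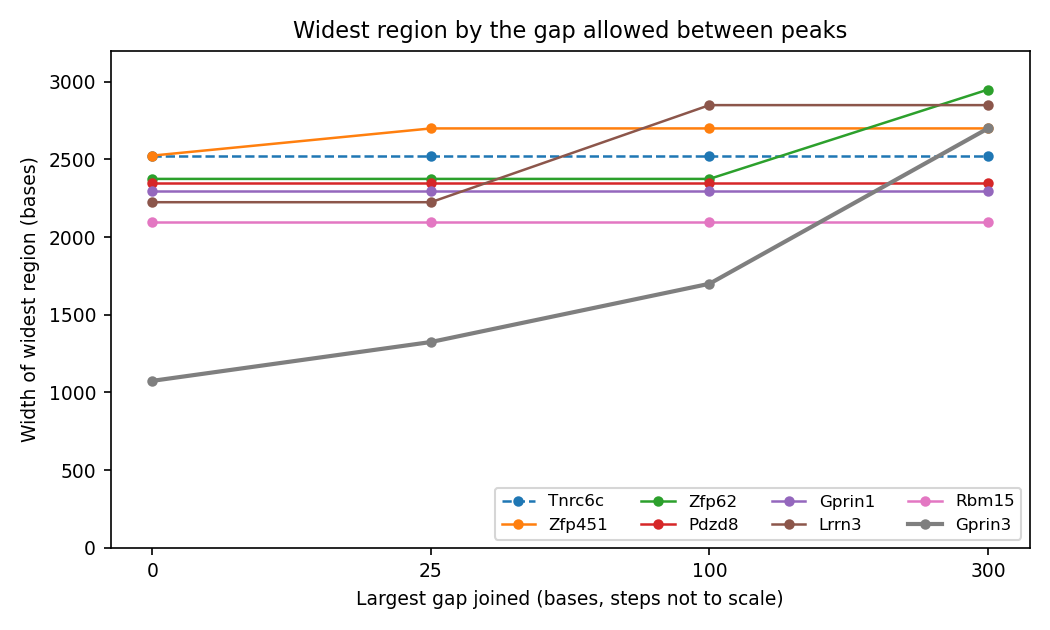
Width of the widest region at each of the 8 genes (vertical axis, bases) against the largest gap joined (horizontal axis, 0, 25, 100 and 300 bases, not to scale). The 4 lines of Tnrc6c, Pdzd8, Gprin1 and Rbm15 are flat, and Gprin3 climbs from 1075 to 2700 bases.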

How the data were processed

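The 6 libraries (3 MeRIP, 3 input) share 1 deposited file of peak positions; per the file's 3 columns these are chromosome, start and end. The build was mm9, and SAMtools 0.1.18 and BWA 0.6.2-r126 are named, per the submitters' processing notes. The sources used here do not say what each tool did, which peak caller and threshold were applied, or how libraries were pooled. Depth is unknown.

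The windows of the 8 genes were given. Named in the text are all 8 genes and, by position only, the nuclear regions that fall between them in the order of width and the first one below. Members, windows and lists were chosen with earlier results of these data known. Touching peaks were joined (gap 0); a region counted for a gene if at least 1 of its peaks lay wholly inside the window. Coordinates are printed counting from 1. RefSeq tables of GRCm38 gave gene names (8 of 8 matched, each on its window's chromosome), overlapping genes and strand. The chromosome was the only check of window against gene. Python 3.11.15, numpy 2.4.6, pandas 2.3.3 and matplotlib 3.10.9 were used; joining and gaps were tested on simulated data. No test was run. Comparison with coding length, protein features and the sequences of the regions was not made, since no protein table or mm9 sequence was used here.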

Additional observations from a re-analysis of the deposited data

How the results depend on the processing

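No paired analysis was possible because all libraries share 1 list of positions, and leaving out a library could not be done either. Without heights or input, no stricter threshold could be applied. The median width of the widest region at the 8 genes was 2325 bases, and it was 2362.5 bases with gaps up to 100 bases joined and 2612.5 bases with gaps up to 300 bases. The 28 regions became 18 at 300 bases, and the share of covered bases in the widest region went from 73.7% to 78.8% at 100 bases. Widening the windows by 20000 bases gave a share of 73.0%. Leaving out Gprin3, chosen after seeing the data, gave a median of 2350 bases, 18 regions and a share of 84.6%. Dropping peaks narrower than the median of 159 bases changed none of the 8 widths, which was given in advance because the pieces of these regions are 175 bases or longer. Counting only regions wholly inside the windows, also chosen after seeing the data, gave 27 regions.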
